A study of Arabidopsis thaliana with 6 samples.

Results

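Leucine-rich repeat (LRR) receptor kinases are plant proteins that span the cell membrane, bind a peptide or steroid hormone with a ladder of leucine-rich repeats outside the cell and pass the signal on through a kinase domain inside. In vascular tissue such receptors are known to steer the cambium, the layer of dividing cells that makes xylem and phloem. The best studied of them is PXY, which binds the TDIF peptide released from phloem and keeps cambium cells dividing. The 6 genes described here are MOL1, BRL1, PXL1, PXL2, AT1G79620 and AT5G67200, out of 13355 genes that could be named on the array. They were chosen by family and by their log2 expression values in NPA minus mock, which were already known. Their values in that contrast are therefore given as a description, without a test. Each gene had a single probe set, the group of short probes that measures a transcript, so no choice between probe sets had to be made.

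The samples were pieces of inflorescence stem, 3 mm long and cut 2.5 cm above the stem base, from wild-type Arabidopsis thaliana of strain Col. Plants had spent 3 weeks in short days (8 h of light, 16 h of dark) before they were moved to long days (16 h of light, 8 h of dark), and their age at harvest is not given in the sources used here. In 3 samples the stem was treated with 10 mg/g NPA, N-1-naphthylphthalamic acid, which blocks the polar transport of auxin along the stem, and the other 3 were mock controls. Treatment lasted 7 days, and the study's question was which genes act when auxin starts the cambium and the thickening of the stem. Whole stem pieces were measured, so no value below places a transcript in a cell type, and fewer cells of a type cannot be told apart from less RNA per cell.

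Values are log2 expression from RMA, so a difference of 1 is a doubling. Array medians averaged 6.25 in mock and 6.36 in NPA, and centring each array on its median lowers every difference by 0.11. The lower quartile of the arrays was 4.22, and RMA does not say which transcripts were detected. In a principal component analysis the first component, with 42.6% of the variance, parted mock from NPA. Along the second, with 21.9%, mock 1 and NPA 3 lay away from the remaining 4 arrays, so differences are also given without this pair. Of 22746 probe sets tested with limma, 683 passed an adjusted p under 0.05, with 2.76% of probe sets higher in NPA and 0.242% lower. For genes other than the 6, "called" means this threshold in what follows.

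AT1G79620, BRL1, MOL1 and AT5G67200 had higher values in NPA than in mock on every array, while PXL1 and PXL2, the relatives of the TDIF receptor, lay at the same level in both groups. The difference was 2.83-fold for AT1G79620, 1.65-fold for AT5G67200, 1.59-fold for MOL1 and 1.37-fold for BRL1. So 4 of the 6 genes had groups that did not overlap and were higher in NPA, against 14.8% of all probe sets. Since the genes were picked with this contrast known, nothing is read from that count. None of the 6 was lower in NPA beyond the spread of its arrays.

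**Figure D1:**
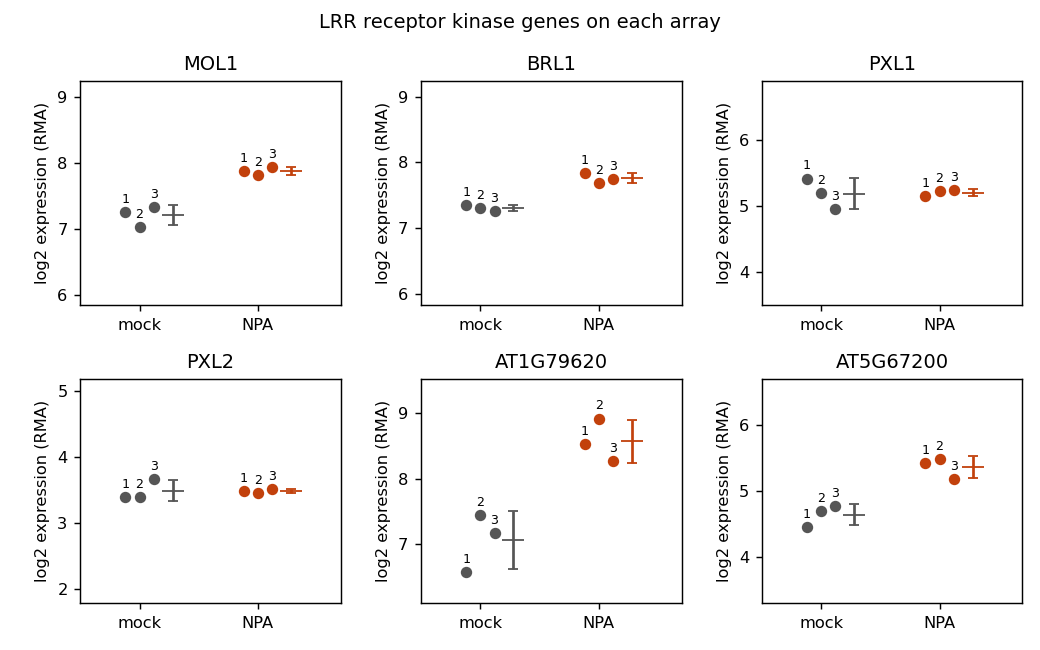
Log2 expression (RMA) of the 6 LRR receptor kinase genes on each array, with array numbers above the points, mock in grey and NPA in orange. Bars beside the points give the mean and SD of the 3 arrays, every panel spans the same log2 range, and the groups overlap for PXL1 and PXL2 alone.

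MOL1 (AT5G51350) encodes a receptor kinase whose full name, MORE LATERAL GROWTH1, comes from the extra stem thickening of plants that lack it. Its log2 values were 7.26, 7.03 and 7.33 in mock and 7.87, 7.81 and 7.94 in NPA. The lowest NPA array stood 0.49 above the highest mock array, and the NPA arrays lay close together. The means were 7.20 ± 0.15 in mock and 7.87 ± 0.06 in NPA (SD, n = 3 each), so NPA lay 0.67 higher with a standard error of 0.11. It was 0.66 without mock 1 and NPA 3, and 0.56 with arrays centred on their medians. Of all probe sets, 96.9% had a lower difference than MOL1.

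BRL1 (AT1G55610) encodes a receptor for brassinosteroids, plant steroid hormones that promote growth and xylem formation. It is a close relative of the main receptor BRI1 and is known for its expression in vascular tissue. Its log2 values were 7.35, 7.31 and 7.27 in mock and 7.84, 7.69 and 7.75 in NPA. This was the tightest pair of groups among the 4 higher genes, with SDs of 0.04 in mock and 0.07 in NPA (n = 3 each), and also the smallest difference, 0.45 with a standard error of 0.09. The difference was 0.47 without mock 1 and NPA 3. It fell to 0.34 with arrays centred on their medians and to 0.37 with a further quantile normalization, both by more than the SD between its arrays. Of the other genes of brassinosteroid perception that were listed, BRI1, BRL2, BRL3 and the 5 SERK co-receptors, and of 12 listed genes of brassinosteroid signalling and synthesis, none had a named probe set of its own, so BRL1 is all that was analysed here of that pathway.

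PXL1 (AT1G08590) and PXL2 (AT4G28650) are named for their likeness to PXY. PXL1 had log2 values of 5.42, 5.20 and 4.95 in mock and 5.15, 5.23 and 5.24 in NPA. The 3 NPA arrays fell inside the range of the mock arrays, and the spread was wider in mock (SD 0.24) than in NPA (SD 0.05, n = 3 each). The difference was 0.01 with a standard error of 0.13. It went from -0.10 without mock 3 to 0.13 without mock 1, so its sign rests on single arrays.

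PXL2 had log2 values of 3.40, 3.40 and 3.67 in mock and 3.48, 3.46 and 3.51 in NPA. All of these lay below the lower quartile of the arrays, at 4.22, where the distance from background is unknown. Again the NPA arrays lay within the mock range, with a difference of -0.01 and a standard error of 0.11. With a gene this dim a change in transcript level may not be visible on the array. PXY itself and the other listed genes of CLE peptide perception, CLV1, BAM1, BAM2, BAM3, CRN, RPK1 and RPK2, were not analysed here.

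Both genes of the TDIF peptide that were measured, CLE41 and CLE44, were higher in NPA on every array, unlike PXL1. PXL2 was flat too, but at a level where a change may not be visible. CLE44 was at 7.67, 7.16 and 7.27 in mock and at 9.23, 9.39 and 9.25 in NPA, which is a rise of 1.92 ± 0.15 (SE, limma, adjusted p = 0.00236). CLE41 differed by 0.46 with a standard error of 0.13 and did not pass (adjusted p = 0.132). Of the 7 listed genes of the peptides and their response these were the 2 measured, with 1 called higher and none lower. EPFL4, EPFL6, CLE42, WOX4 and WOX14 were not analysed here. The list was chosen with earlier results of these data known, so nothing is read from that count.

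AT1G79620 had the largest difference of the 6 genes. The gene tables used here give this LRR receptor kinase no name beyond its locus. Its log2 values were 6.58, 7.44 and 7.17 in mock and 8.52, 8.91 and 8.26 in NPA. The groups were 0.83 apart at their nearest arrays, and it was also the most variable of the 6, with means of 7.06 ± 0.44 in mock and 8.56 ± 0.33 in NPA (SD, n = 3 each). The difference was 1.50 with a standard error of 0.24. Mock 1 was the lowest array, and without it the difference was 1.26, while without mock 2 it was 1.69. Of all probe sets, 99.7% had a lower difference.

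AT5G67200, the other LRR receptor kinase known here by locus alone, was a dimmer gene, below the array median. Its log2 values were 4.46, 4.70 and 4.77 in mock and 5.43, 5.49 and 5.18 in NPA. The groups were 0.41 apart at their nearest arrays. The means were 4.64 ± 0.16 and 5.37 ± 0.16 (SD, n = 3 each), a difference of 0.72 with a standard error of 0.13, and it was also 0.72 without mock 1 and NPA 3. As in AT1G79620, mock 1 was the lowest of the mock arrays, NPA 2 the highest and NPA 3 the lowest of the NPA arrays.

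By size of the difference the genes ran from AT1G79620 through AT5G67200, MOL1, BRL1 and PXL1 to PXL2. AT1G79620 stood 0.78 above AT5G67200, with a joint standard error of 0.28. Joint standard errors combine those of the 2 genes as if independent, though both were read on the same arrays, so they are rough. AT5G67200 and MOL1 were 0.05 apart with a joint standard error of 0.17, so their order is within error, as is that of PXL1 and PXL2, 0.02 apart with 0.17. MOL1 was 0.22 above BRL1 (joint standard error 0.14), and BRL1 0.43 above PXL1 (0.16). These are descriptions of genes picked with the contrast in view.

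**Figure D2:**
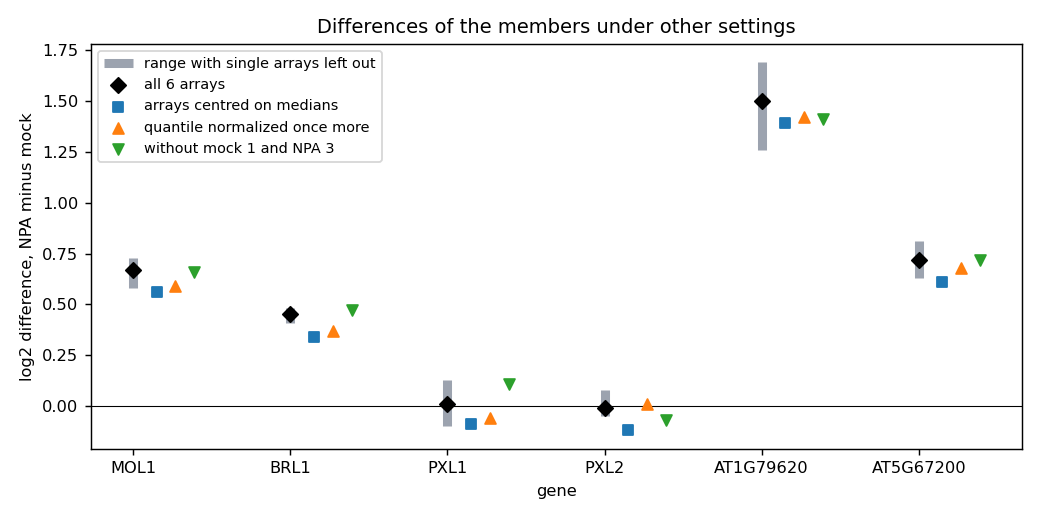
Log2 difference, NPA minus mock, of each gene with all 6 arrays (diamonds), its range with single arrays left out (grey bars), and under 3 other settings. MOL1, BRL1, AT1G79620 and AT5G67200 stay above 0 in every setting drawn, and PXL1 and PXL2 lie on both sides of 0.

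With single arrays left out, the differences stayed between 0.58 and 0.73 for MOL1, 0.41 and 0.48 for BRL1, 1.26 and 1.69 for AT1G79620 and 0.63 and 0.81 for AT5G67200.

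The shape of the profiles over the 6 arrays was compared by the root mean square distance of the log2 values, after each gene was centred on its own mean. A small distance means that 2 genes went up and down on the same arrays by like amounts. Among the members the nearest pair was MOL1 and BRL1, at 0.151, followed by MOL1 and AT5G67200 at 0.188. AT1G79620 was far from all others, at 0.442 or more, since its swing was larger. PXL1 and PXL2 were 0.222 apart and differed in which mock array was high, mock 1 for PXL1 and mock 3 for PXL2.

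Against the other 13354 named genes, the profile nearest to MOL1 was that of AT3G13672, at 0.064, with log2 values of 3.82, 3.66 and 3.87 in mock and 4.49, 4.41 and 4.68 in NPA. AT1G01225 followed at 0.067, where the median distance over all genes was 0.369. With so many genes compared over 6 arrays, the nearest lies far below the median in any case, here and below. For a gene higher in NPA a small distance mostly needs a like difference, 0.67 for MOL1, 0.74 for AT3G13672 and 0.77 for AT1G01225. The mock values of AT3G13672 lay below the lower quartile of the arrays, at 4.22. BRL1 was nearest to AT4G15430 (0.048) and AT1G76550 (0.050), against a median of 0.267. NPA 2, the lowest NPA array for both receptors, was also the lowest for AT3G13672, AT4G15430 and AT1G76550, while for AT1G01225 it was NPA 1.

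AT1G79620 was nearest to AT2G23360, at 0.181 against a median distance of 0.827, with log2 values of 6.98, 7.32 and 7.19 in mock and 8.39, 8.85 and 8.37 in NPA. This gene repeated the low mock 1 and the high NPA 2. The second nearest was AT5G47635, at 0.228. AT5G67200 was nearest to AT1G31050 (0.055) and AT5G37310 (0.071), against a median of 0.412. For the flat genes PXL1 and PXL2, the nearest profiles, AT1G49015 (0.022) and GSTU21 (0.023) for PXL1 and AT1G75160 (0.025) and AT5G06770 (0.030) for PXL2, were flat too.

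In the order of genes along the chromosome, AT5G67200 is followed directly by IRX15-L (AT5G67210), which acts in the synthesis of xylan, a polymer of secondary walls. IRX15-L was at 8.25, 8.21 and 7.79 in mock and at 9.41, 9.54 and 9.28 in NPA, with a rise of 1.33 and a standard error of 0.15 (limma, adjusted p = 0.00532). In both neighbours NPA 2 was the highest and NPA 3 the lowest NPA array, but in mock the low array was mock 1 for AT5G67200 and mock 3 for IRX15-L. The genes beside MOL1, AT5G51340 and AT5G51360, differed by 0.15 (adjusted p = 0.515) and 0.01 (adjusted p = 0.969). Beside AT1G79620, AT1G79630 differed by 0.26 (adjusted p = 0.341), and beside PXL1, AT1G08580 differed by -0.14 (adjusted p = 0.617) and ATRX by 0.29 (adjusted p = 0.485). So 1 of the 6 measured neighbours passed the test, and the other 6 were not analysed here.

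Some xylem wall and mitosis genes rose in NPA, beside the higher values of the 4 receptor genes. Of 21 listed xylem and secondary wall genes 4 were measured and 3 rose: IRX10 by 1.40 (adjusted p = 0.00705), IRX15-L, and IRX15 by 0.97 (adjusted p = 0.0138, lost without mock 2 or mock 3, with 0.0568 and 0.0576). IRX10-L differed by 0.34 (adjusted p = 0.133). The sum of their log2 values ran from 32.20 to 33.02 in mock and from 36.22 to 37.63 in NPA. As in AT1G79620 and AT5G67200, NPA 2 was the highest NPA array in all 4. This was not particular to wall genes. NPA 2 was also highest in CLE41, CLE44, SWEET11 of the phloem, AUR3 and the green cortex genes PRK, PSAN and PSAE-1. In OPS of the phloem, AUR1, AUR2 and 3xHMG-box1 it was NPA 3. Of 12 listed mitosis genes 5 were measured and 2 rose. 3xHMG-box2 rose by 1.22 (adjusted p = 0.00678, lost without mock 1 and NPA 3 together, with 0.052). The Aurora kinase gene AUR2 rose by 0.76 (adjusted p = 0.0326, lost without any 1 of the 6 arrays, up to 0.0966). AUR1 differed by 0.46 (adjusted p = 0.228), AUR3 by -0.04 (adjusted p = 0.871) and 3xHMG-box1 by 0.02 (adjusted p = 0.961), the last 2 with overlapping groups. The summed log2 values of the 5 were 22.68 to 24.09 in mock and 25.43 to 26.64 in NPA. Both lists were chosen with earlier results of these data known, so nothing is read from these counts. Over all named genes, 2.31% were called higher. The part of xylem and dividing cells in the values of the receptor genes was not tested.

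Among markers of other stem tissues 1 gene, OPS of the phloem, was called. Of the 2 measured phloem genes, OPS rose by 1.15 (adjusted p = 0.0191, lost without mock 1, mock 2 or NPA 1, up to 0.0765) and SWEET11 differed by -0.95 (adjusted p = 0.0909, called without NPA 3). Their summed log2 values overlapped, at 12.62 to 13.19 in mock and 12.76 to 13.37 in NPA. The 3 measured genes of the green cortex summed to 31.44 to 32.17 and 31.85 to 33.09, with none called. Of these, PRK had groups that did not overlap, at 9.51 to 9.55 in mock and 9.63 to 10.4 in NPA. It differed by 0.41 (limma, adjusted p = 0.347), and the groups of PSAN and PSAE-1 overlapped. SCL23 of the starch sheath was at 6.74 to 7.05 in mock and 6.29 to 6.39 in NPA (difference -0.51, adjusted p = 0.0594). It was called lower with only brighter probe sets (limma, adjusted p = 0.048) and after a further quantile normalization (0.049). ACR4 of the epidermis was at 3.94 to 4.39 and 4.06 to 4.25, SPL of the flower at 3.90 to 4.03 and 3.96 to 4.11, and the 3 stomatal genes summed to 11.77 to 12.21 and 11.74 to 12.30, with 0 called by limma in these lists and FAMA and SCL23 at an unadjusted p under 0.05. No value on these arrays was 0, and ACR4, SPL, SPCH and MUTE had mock means below the lower quartile. The lists of these tissues were also chosen with earlier results of these data known. The values stand beside those of the receptor genes, and their part in them was not tested.

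**Figure D3:**
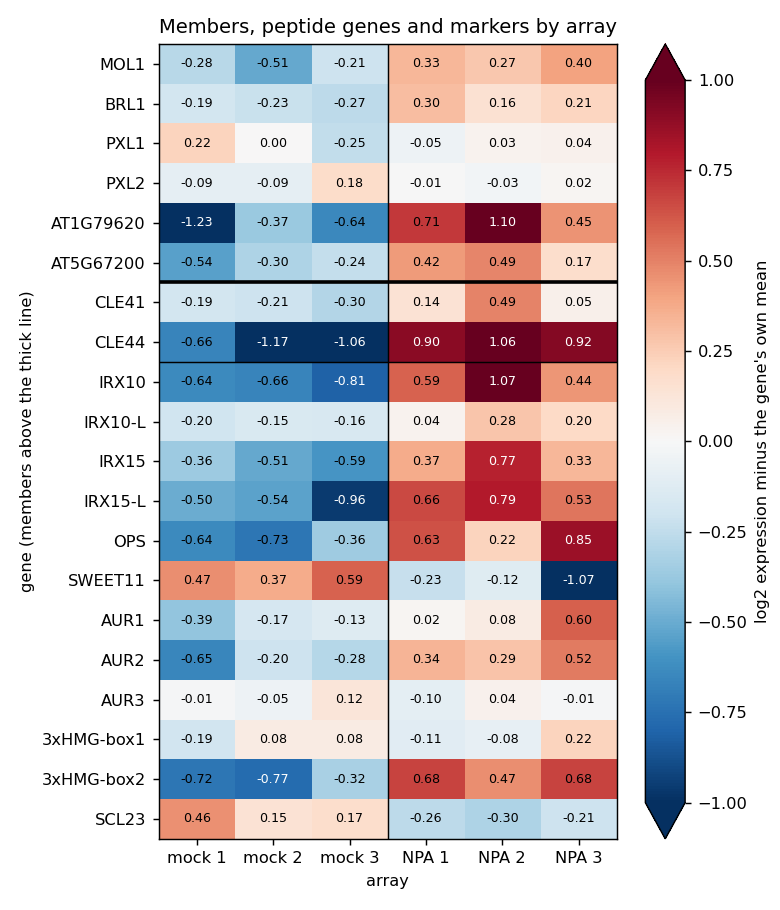
Log2 expression of the 6 members (above the thick line), the TDIF peptide genes CLE41 and CLE44 and marker genes on the 6 arrays, each minus the gene's own mean, with the number in each cell. MOL1, BRL1, AT1G79620 and AT5G67200 are negative on all mock arrays and positive on all NPA arrays, and PXL1 and PXL2 are mixed. CLE41, CLE44, the IRX genes and some other markers, among them OPS, AUR1 and AUR2, have the same signs as MOL1, but not all markers do.

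To place the members in their family, 209 other LRR receptor kinase loci were listed, and 120 of them had a named probe set. The listing rests on general knowledge of the family, because the gene tables hold no descriptions, and most of these genes carry no name but the locus. Most of it was added after the data were examined. The planned short list held 6 measured kinases, of which 1 was called (AT2G01820). Of the 120, 11 were called higher in NPA and none lower, while 27 had groups that did not overlap and were higher, and 4 lower, against 14.8% and 7.45% of all probe sets. At an unadjusted p under 0.05, 24 were higher and 3 lower, against 11.4% and 4.95% of all probe sets. Over all 13355 named genes, 2.31% were called higher and 0.232% lower. The median difference was 0.04 in the family and 0.01 over all named genes.

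All 11 called kinases were among the 74 whose mean reached the lower quartile of the arrays, where 14.9% were called, against 3.56% of the 9411 named genes as bright. Of the 46 dimmer ones 0 were called by limma, also at an unadjusted p under 0.05, with differences between -0.24 and 0.25, and of the 3944 named genes as dim 0.127% were called. PXL2 belongs with these by its level, and PXL1 with the brighter ones.

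AT5G58300 rose from 6.94, 6.63 and 6.78 in mock to 7.60, 7.73 and 7.77 in NPA, which is a rise of 0.91 ± 0.11 (SE, adjusted p = 0.00727). AT2G23300 rose by 0.93 (adjusted p = 0.00833) and AT1G67510 by 1.06 (adjusted p = 0.00889). These 3 stayed called whichever array was left out. Their differences lay above those of MOL1, BRL1 and AT5G67200 and below that of AT1G79620, with no test between these genes. AT3G03770 rose by 0.81 (adjusted p = 0.0111), but not without NPA 1, NPA 2 or mock 3, up to 0.0548. AT5G14210 rose by 0.92 (adjusted p = 0.0146), but not without NPA 2 (0.0637).

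Calls of the remaining 6 kinases rested on most of the arrays. AT2G26730, at 0.60 (adjusted p = 0.0207), lost its call without any 1 array, up to 0.0804. AT3G56370, at 1.20 (0.0231), kept it only without mock 1, with adjusted p up to 0.0871 otherwise. AT5G41180, at 0.81 (0.0236), lost it without mock 2 or any NPA array, up to 0.0883. AT5G51560, at 1.05 (0.0251), lost it without NPA 1 or any mock array, up to 0.0907. AT5G48740, at 1.20 (0.0308), kept it only without NPA 3, up to 0.110 otherwise. AT2G01820, at 0.69 (0.0342), kept it only without mock 1, up to 0.129 otherwise. The differences of all 11 stayed at 0.56 or more with single arrays left out.

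The lowest differences in the family were those of AT1G34110, AT5G59680 and AT1G53430, and none passed the test. AT1G34110 was at 7.28, 6.96 and 6.91 in mock and 6.58, 6.49 and 6.40 in NPA (difference -0.56, adjusted p = 0.0628), with groups that did not overlap. AT5G59680 differed by -0.48 (adjusted p = 0.360) and AT1G53430 by -0.36 (adjusted p = 0.237), both with overlapping groups. Among receptors of other peptides and ligands, PSY1R, a receptor of a sulfated growth peptide, differed by 0.07 (adjusted p = 0.774), and EFR, an immune receptor of bacterial EF-Tu, by 0.03 (adjusted p = 0.958). GSO1, which acts in the endodermal barrier of the root and in seeds, differed by -0.04 (adjusted p = 0.900), and EMS1, an anther receptor, by -0.11 (adjusted p = 0.674). Of these 4 none was called by limma, also at an unadjusted p under 0.05. AT1G24650 differed by 0.08 (adjusted p = 0.877).

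**Figure D4:**
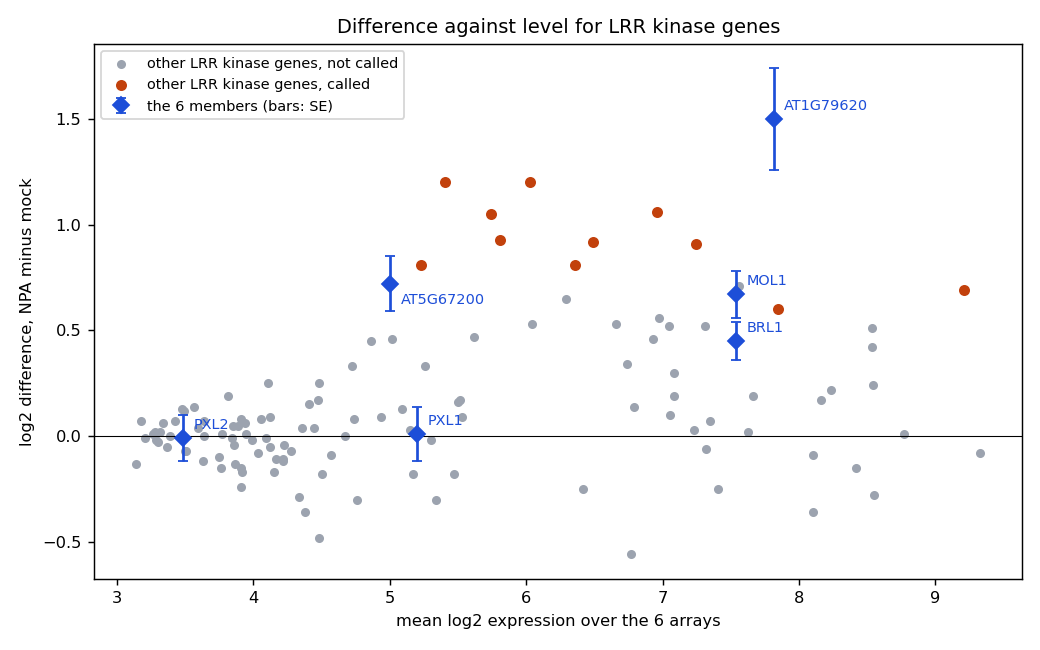
Log2 difference (NPA minus mock) against the mean log2 expression over the 6 arrays for 120 other LRR kinase genes and the 6 members (blue, with standard errors). The called genes (orange, 11) all have positive differences, and the dimmest genes on the left lie close to 0, as does PXL2.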

How the data were processed

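The deposited values were log2 expression values of 6 Affymetrix arrays of total RNA, which the authors made with RMA. The tools RMA and limma are listed in the submitters' processing notes, with no version. RMA corrects background, quantile-normalizes arrays and summarises each probe set, and what followed it was not given in the sources used. Sample titles gave the groups and replicate numbers. No label states that the samples of a group were taken from different plants. The p-values then measure only the spread between these samples, and that may be technical. Precision is limited by having 3 arrays a group.

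Of 22810 probe sets 64 controls were left out. NPA minus mock was fitted with lmFit and eBayes of limma 3.58.1 (R 4.3.3), with Benjamini-Hochberg adjustment over 22746 probe sets. Standard errors are limma's moderated ones. Gene names came from the platform's table and were updated from a table of TAIR10.1. There 13513 probe sets had 1 gene, of which 13436 were matched by gene number, 48 by their locus and 24 by their symbol, and 5 kept the platform's name. A further 503 had several genes and 8730 none. A gene was read by its brightest probe set over the 6 arrays. No sequence is given.

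The members and all gene lists were chosen with earlier results of these data known. Named besides the members were the called genes of each list and up to 3 with the lowest p, the called kinases of the family and its 3 lowest differences, and the 2 nearest profiles of each member. The family was to be found by annotation, which matched 1 gene, with none measured, so a longer list of loci was added after the data were examined. CRN, which has no leucine-rich repeats, was left out of the family and had no named probe set of its own. The 3 called kinases with the highest p were named beyond the planned 8. The epidermal marker FDH was taken by its locus and not by its symbol, which another gene shares, and was not analysed here.

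On simulated data for 3 NPA against 3 mock arrays with 22746 probe sets, 93 of 100 probe sets changed 2-fold and 99 of 100 changed 4-fold were called, with 12 false among 204 calls. The simulated noise was normal, independent between probe sets and free of effects shared by an array. Changes were added in full to dim and bright probe sets alike. These rates therefore need not hold for the real arrays, least of all for dim genes. Alternatives were a replicate block, further quantile normalization, median centring, only probe sets brighter than the median, eBayes with a trend and robust, leaving out each array or mock 1 and NPA 3 together, stricter thresholds and averaging the probe sets of a gene. Python 3.11.15, pandas 2.3.3 and matplotlib 3.10.9 were used for tables and plots.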

Additional observations from a re-analysis of the deposited data

How the results depend on the processing

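For the 36 tested genes besides the members, none of 451 pairs of a gene and an alternative changed the sign of a called difference, 58 lost a call and 3 gained one. Among 75 such pairs for the 6 members, which were not tested, BRL1 moved by more than its spread, to 0.34 with centred arrays and 0.37 after quantile normalization. Called kinases of the longer list were 11, but 3 at 0.01 and 4 to 8 with single arrays left out. In the short list of 6 other kinases 1 was called (AT2G01820), but 0 with centred arrays, after quantile normalization or at 0.01, and 0 to 1 with single arrays left out. Called probe sets were 683, but 397 without mock 1 and NPA 3, 225 at 0.01, 255 with a log2 difference of at least 1 besides, and 304 to 446 with single arrays left out. Of them 628 were higher and 55 lower, but 391 and 97 with centred arrays. Fits without an array have fewer samples, and the cause of other changes was not tested. The annotation rule alone left no measured kinase, so that alternative gave no value.

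Same-numbered samples did not deviate together (correlations of deviations from the group means from -0.26 to 0.05). Across numbers the correlations ran from -0.34 (mock 2 with NPA 3) to 0.36 (mock 2 with NPA 1). Deviations within a group of 3 sum to 0, so these correlations are tied to each other. They cannot show whether same-numbered samples were handled together. With the replicate block 7 kinases of the longer list, 0 of the short list and 449 probe sets were called. Signal near the lower quartile limits what can be said of PXL2.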
